A study of Mustela putorius furo with 2 samples.

Results

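The teneurins are the 4 genes TENM1, TENM2, TENM3 and TENM4, chosen by name from the 21317 genes with a UMI (a counted RNA molecule) in single cells of ferret cortex. All 4 were measured, and all 4 names are in the RefSeq gene table of the ferret. They were picked with their levels per cell class in view, so those levels are given here as a description, with no test. The tissue was dorsal cortex from ferrets of postnatal day 3, labelled wild type, which was dissociated with papain and run on the 10x Genomics Chromium platform. It gave 2 replicates of 1 group. There was no second genotype, treatment or age, so every contrast is between cell classes of the same tissue.

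Teneurins are large transmembrane proteins whose long outer part binds other teneurins and the latrophilins, adhesion receptors encoded by ADGRL1, ADGRL2 and ADGRL3. Latrophilins in turn bind the FLRT proteins, which also bind UNC5 receptors, so these families can meet in 1 complex where cells touch. In the brain they are known for matching axons with their targets, for synapse formation, and for the migration of young cortical neurons along radial glia.

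The 2 barcode suffixes were read as 2 libraries, called library A (9780 kept cells, 41831471 UMIs) and library B (4993 kept cells, 18883955 UMIs), with 21 barcode sequences in both. No label ties a suffix to a replicate or says that the replicates are separate animals. Cells were sorted into 19 classes by the UMIs of marker genes, and 13 classes had at least 20 cells in each library. Together these gates held 5758 cells, and 9015 cells (61.0%) were in none of them. In 17 classes, at least 3 markers kept out of the gate stood at 10 CPM or more and 1.5-fold or more above the other cells. CPM means the UMIs of a gene per 1000000 UMIs of the summed cells. A gate made to hold deep-layer neurons (TBR1, FOXP2, TLE4, FEZF2, BCL11B, SYT6 and CRYM) raised 0 of 5 such markers and is called deep-list neurons. A gate of DLX or GAD genes with MEIS2 raised 2 of 5, held the progenitor gene EOMES at 201 and 170.5 CPM in libraries A and B, and is called the mixed MEIS2 gate.

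Among the 13 classes, TENM2 was highest in cortical interneurons, and TENM4 in non-dividing EOMES progenitors and excitatory neurons. TENM3 was highest in EOMES progenitors, HOPX radial glia, HOPX and CLU glia, and LIFR, CITED1 and BBOX1 glia. The last of these overlapped the mixed MEIS2 gate and microglia, while EGFR and OLIG1 gliogenic progenitors lay below them all. TENM1 was low throughout, with its highest mean in newborn excitatory neurons, which overlapped deep-list neurons and lost that place with thinned cells. Non-dividing EOMES progenitors were high in both TENM3 and TENM4. TENM2 came to 7110 UMIs in all kept cells, TENM3 to 10008, TENM4 to 16065 and TENM1 to 1940. Levels are not set against each other between genes, because UMIs of 3' ends depend on how well each gene's end is annotated and the annotation used for counting is not given in the sources used here.

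**Figure D1:**
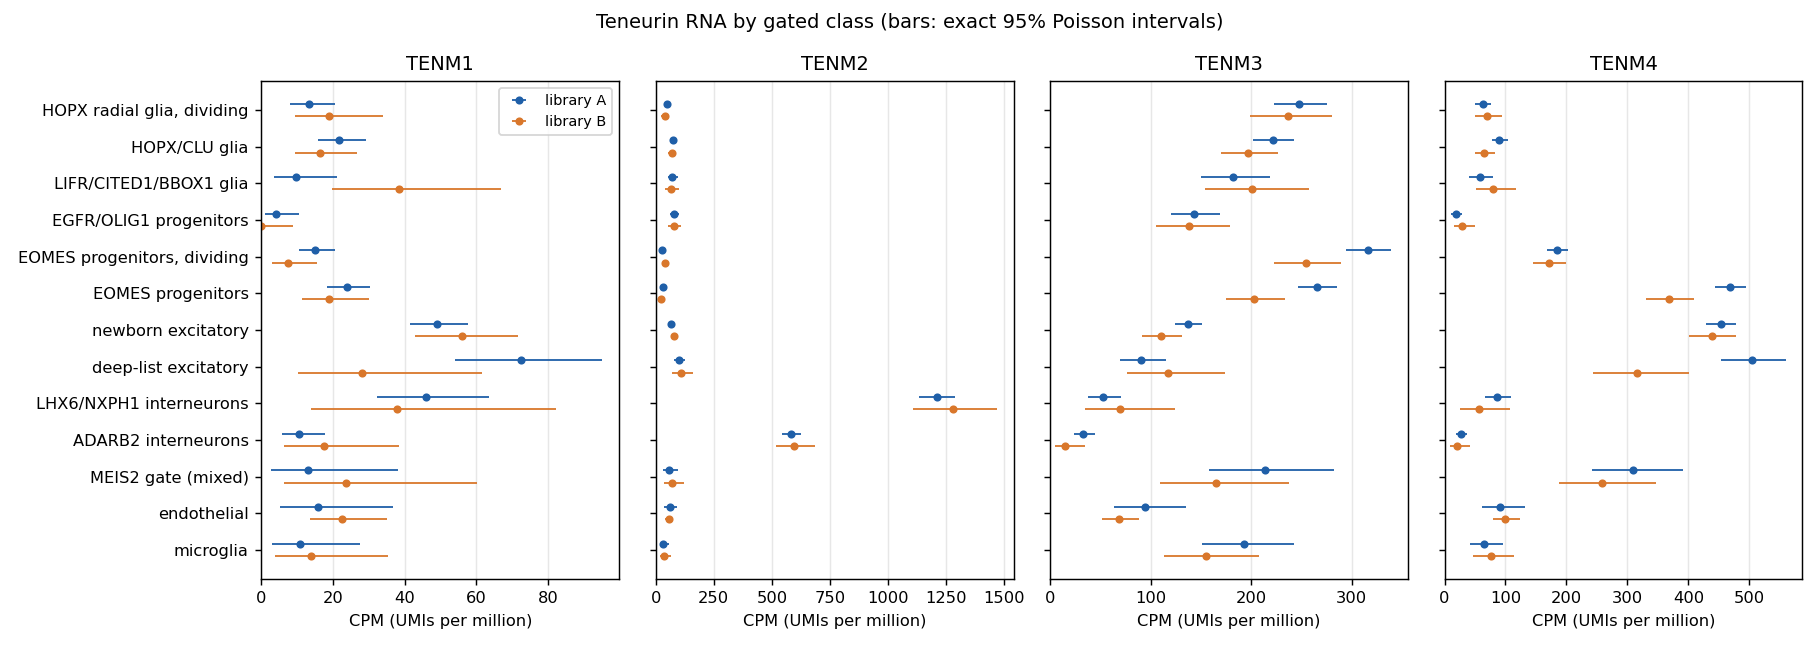
CPM of each teneurin (x axes, a scale for each gene) in the 13 classes with at least 20 cells in each library, with 1 point per library and exact 95% Poisson intervals that cover counting error only. TENM2 stands at 583 to 1279.7 CPM in both interneuron gates and at no more than 108 elsewhere, while TENM4 stands at 315 to 505 in 3 classes of the excitatory lineage.

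TENM2, a known latrophilin ligand at synapses, was at 1210.1 and 1279.7 CPM (libraries A and B) in interneurons carrying LHX6 or NXPH1, genes of the medial ganglionic eminence. It was at 583 and 596 CPM in interneurons carrying ADARB2, a gene of the caudal ganglionic eminence. The libraries did not overlap between these classes, and the first stood 2.08-fold (A) and 2.15-fold (B) above the second. In the other 11 classes TENM2 lay between 24.3 and 108 CPM. ADARB2 interneurons held 5.80-fold (A) and 5.51-fold (B) more TENM2 than deep-list neurons, the next class in the order. SST interneurons, a further group of medial origin known by the peptide somatostatin, held 978 CPM in the 69 cells of library A and 1095 CPM in the 11 cells of library B (95% Poisson interval 775 to 1502). The 11 cells fall under the minimum of 20 for a place in the order.

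TENM2 was found in a large share of the cells of each interneuron class and not in a few alone, but unevenly. To set cells side by side at 1 depth, every cell was thinned to 1500 UMIs. At that depth 70.2% of LHX6 or NXPH1 interneurons in library A and 74.1% in library B had a TENM2 UMI, and 11.8% and 12.1% had 5 or more. Of ADARB2 interneurons 47.7% and 43.5% had a UMI, and 2.08% and 2.17% had 5 or more. The variance of TENM2 UMIs per thinned cell over their mean was 2.07 and 2.06 in LHX6 or NXPH1 interneurons. In ADARB2 interneurons it was 1.71 and 2.06, where counting error alone would give about 1. In the other 11 classes 1.24% to 14.5% of the thinned cells had a TENM2 UMI. Microglia, which are not of neural origin, were at 8.70% and 10.3%. The TENM2 shares of progenitors and newborn neurons (6.06% and 8.47%) did not pass those of microglia. How much of the TENM2 in these classes is background was not tested. Without thinning the shares were 85.5% and 79.3% for LHX6 or NXPH1 interneurons (median depth 3128 and 2646.5 UMIs), 59.8% and 58.0% for ADARB2 interneurons (2671.5 and 2346.5), and 9.78% and 11.5% for microglia (3130.5 and 2099).

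**Figure D2:**
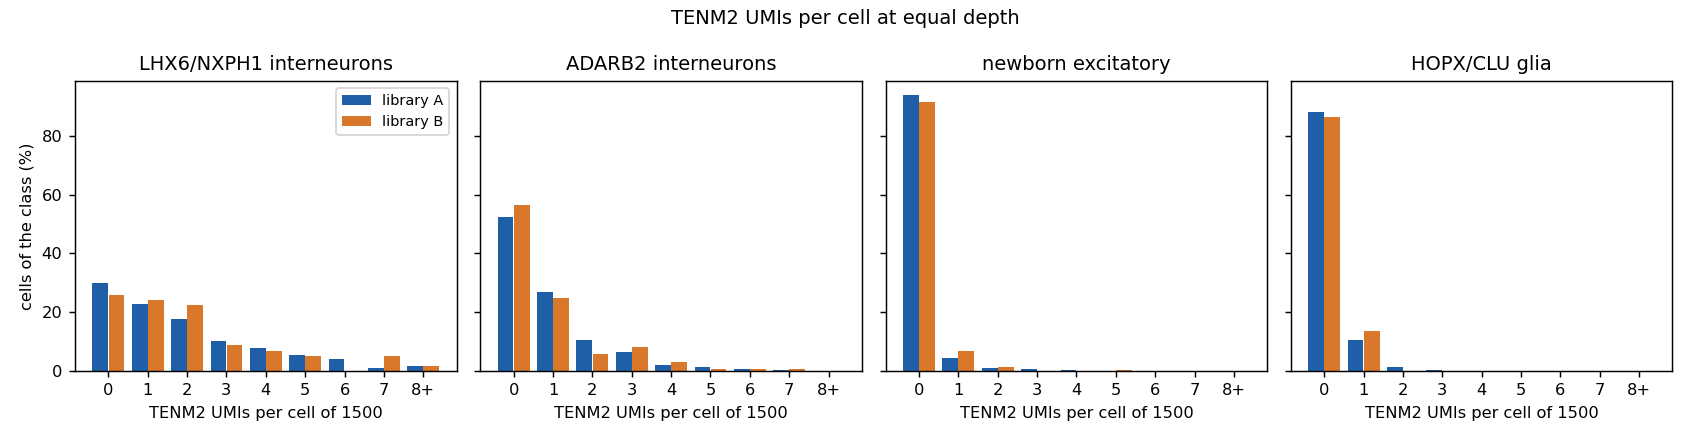
Share of the cells of a class (y axes, percent) by number of TENM2 UMIs (x axes) after each cell was thinned to 1500 UMIs, with 1 bar per library. Cells with 0 UMIs are 29.8% and 25.9% of LHX6 or NXPH1 interneurons, 52.3% and 56.5% of ADARB2 interneurons, 93.9% and 91.5% of newborn excitatory neurons, and 88.0% and 86.5% of HOPX and CLU glia.

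Among the other classes, TENM2 was lowest in non-dividing EOMES progenitors (29.8 and 24.3 CPM in libraries A and B), the neuronal intermediate progenitors of the cortex. Newborn excitatory neurons, gated by NEUROD2 or NEUROD6 with NEUROD1, NHLH1 or SSTR2, held 64.1 and 79.8 CPM, and deep-list neurons 100.4 and 108. Both neuron classes lay above EOMES progenitors in both libraries. In glia it lay between 38.1 and 79.3 CPM, with EGFR and OLIG1 gliogenic progenitors at 79.3 and 78.6. Oligodendrocyte precursors gated by PDGFRA and SOX10 held 168 CPM in 49 cells of library A and 220.1 in 18 cells of library B. Both values lie above those of the other glial classes with at least 20 cells in each library.

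TENM3, known for wiring in the hippocampus and the visual system, was highest in dividing EOMES progenitors, at 316 and 254 CPM (libraries A and B). Dividing HOPX radial glia followed at 248 and 237 CPM, non-dividing EOMES progenitors at 266 and 203, non-dividing HOPX and CLU glia at 221 and 197, and LIFR, CITED1 and BBOX1 glia at 182 and 201. From dividing HOPX radial glia to those LIFR glia each class overlapped the next in the order. HOPX is a known marker of outer radial glia, the basal stem cells that are many in the ferret cortex. EGFR and OLIG1 gliogenic progenitors stood lower, at 143 and 138 CPM, apart from the classes on either side of them in the order.

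Excitatory neurons and interneurons held less TENM3 than EOMES progenitors and HOPX radial glia in both libraries. Newborn excitatory neurons were at 137 and 110.0 CPM (libraries A and B), and deep-list neurons at 90.6 and 118. Non-dividing EOMES progenitors stood 1.93-fold and 1.84-fold above the newborn neurons, with no overlap of the libraries. ADARB2 interneurons were lowest in both libraries, at 33.1 and 14.7 CPM. LHX6 or NXPH1 interneurons were at 52.2 and 69.3 CPM and overlapped endothelial cells. At 1500 UMIs per cell, 31.7% and 28.2% of non-dividing EOMES progenitors had a TENM3 UMI, 18.0% and 14.98% of newborn neurons, and 3.33% and 1.45% of ADARB2 interneurons. Without thinning these shares were 56.2% and 47.3% (median depth 4234 and 3596 UMIs), 35.1% and 30.9% (3433 and 3113), and 5% and 3.62% (2671.5 and 2346.5). Endothelial cells, the other non-neural class, were at 15.5% and 11.6% after thinning, and microglia at 22.8% and 19.5%. The TENM3 share of interneurons of either gate lay below both, and that of newborn neurons lay above endothelial cells and below microglia. With less in ADARB2 interneurons, neither non-neural share is a floor common to all classes, and microglia held TENM3 near its overall level, as given below. How much of the TENM3 in newborn neurons and interneurons is background was not tested.

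TENM4, known from the genetics of tremor and of mood disorders, was at 453 and 438 CPM in newborn excitatory neurons (libraries A and B), 469 and 368 in non-dividing EOMES progenitors and 505 and 315 in deep-list neurons. In the order by mean, newborn neurons overlapped non-dividing EOMES progenitors, which overlapped deep-list neurons. The next class, the mixed MEIS2 gate, lay apart below deep-list neurons. Dividing EOMES progenitors held 185 and 171 CPM, which was 2.95-fold and 2.47-fold above dividing HOPX radial glia (62.5 and 69.2) and 2.54-fold and 2.15-fold below non-dividing EOMES progenitors. TENM4 thus stood at separate levels in dividing and non-dividing EOMES progenitors. Neither EOMES gate bars the neuron genes NEUROD2 and NEUROD6, so these classes can hold young neurons, and their part in these levels was not tested. The share of HOPX radial glia with a TENM4 UMI lay below that of microglia after thinning, as given below.

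Glia and interneurons held little TENM4. HOPX and CLU glia were at 90.0 and 64.5 CPM in libraries A and B, LIFR, CITED1 and BBOX1 glia at 58.0 and 79.8, and LHX6 or NXPH1 interneurons at 85.8 and 56.7. The lowest were EGFR and OLIG1 gliogenic progenitors, at 18.3 and 28.6 CPM, and ADARB2 interneurons, at 26.3 and 20.6. Dividing HOPX radial glia held 3.42-fold and 2.42-fold more than the gliogenic progenitors. TENM4 is also known for a part in oligodendrocyte maturation, and oligodendrocyte precursors, with 6 and 2 UMIs, were at 22.9 CPM (95% Poisson interval 8.42 to 49.9) and 24.5 CPM (2.96 to 88.3). At 1500 UMIs per cell, 44.1% and 42.3% of non-dividing EOMES progenitors had a TENM4 UMI, 20.7% and 17.1% of dividing ones, 11.6% and 9.62% of dividing HOPX radial glia, and 3.96% and 3.62% of ADARB2 interneurons. Without thinning these shares were 72.2% and 65.1%, 54.4% and 48.6%, 29.6% and 26.9%, and 6.04% and 4.35%. Microglia were at 14.1% and 11.5% after thinning (19.6% and 16.1% before). The thinned shares of HOPX radial glia and of interneurons of both gates lay below these, and both EOMES classes stood above them. With ADARB2 interneurons far lower, the microglia share is not a floor common to all classes. How much of the TENM4 in HOPX radial glia and interneurons is background was not tested.

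TENM1 was sparse. It was at 49.1 and 55.9 CPM in newborn neurons (libraries A and B), 72.5 and 28.2 in deep-list neurons, and 46.0 and 37.8 in LHX6 or NXPH1 interneurons. Deep-list neurons overlapped the classes on both sides, and 11 of the 12 neighbouring pairs in the order did. ADARB2 interneurons held 10.5 and 17.6 CPM, and EOMES progenitors of both gates 7.58 to 23.9. SST interneurons held 113 CPM (26 UMIs) in library A and 144 CPM (5 UMIs, 95% Poisson interval 46.8 to 336) in library B. In EGFR and OLIG1 gliogenic progenitors it was at 4.07 CPM in library A and at 0 UMIs in the 88 cells of library B, which at 3 counts allows up to 7.15 CPM and a share of up to 3.41% of cells with a UMI (upper ends of the exact 95% intervals 8.79 CPM and 4.11%). At 1500 UMIs per cell, the share of cells with a TENM1 UMI did not pass 8.59% in any of the 13 classes, and in microglia it was 3.26% and 4.598%. The LHX6 or NXPH1 interneurons, at 5.88% and 5.17%, stood above microglia in both libraries, while newborn neurons, at 4.44% and 3.91%, did so in library A alone. In library B these were 3 of 58 interneurons (exact 95% interval 1.08% to 14.4%) and 4 of 87 microglia (1.27% to 11.4%). The intervals of these interneurons and microglia overlapped in both libraries. Without thinning the shares were 10.4% and 9.45% in newborn neurons and 4.35% and 4.598% in microglia. With thinned cells, the mean of both libraries was 32.4 CPM in place of 52.5 in newborn neurons and 8.998 in place of 14.1 in ADARB2 interneurons. Thinned deep-list neurons held 73.6 and 27.2 CPM, and thinned LHX6 or NXPH1 interneurons 41.8 and 34.5. Newborn neurons, at 32.3 and 32.6 CPM, thus no longer had the highest mean.

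Of the 12 neighbouring pairs of classes in each order, the ranges of the 2 libraries did not overlap in 6 for TENM2, 5 for TENM4, 4 for TENM3 and 1 for TENM1. With 2 libraries a class, such a gap can be as small as that of TENM2 between EGFR and OLIG1 gliogenic progenitors and HOPX and CLU glia (1.09-fold). The mixed MEIS2 gate held TENM4 at 309.6 and 259 CPM and TENM3 at 214 and 165. Restricted to its cells with no EOMES UMI, a step chosen after its values were seen, it held a mean of 187 CPM of TENM4 in place of 284 and of 8.56 CPM of TENM1 in place of 18.3. TENM3 in these cells was at 107 CPM in library A and 188 in library B, lower than in the whole gate in the first and higher in the second. Which cells carry the TENM4 of this gate was not tested.

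Free RNA from burst cells can give low counts in every class. In microglia, the immune cells of the brain, P2RY12 was at 1835 CPM and TREM2 at 1486. In them 5 neural genes (FABP7, STMN2, DCX, SOX2 and PTPRZ1, chosen after values were seen) reached 0.152 to 0.258 of their level over all kept cells in library A, and 0.209 to 0.379 in library B. TENM4 in microglia lay within these ranges, at 0.230 and 0.328 of its overall level. TENM2, at 0.256 and 0.386, lay within the first and above the second, and TENM1, at 0.329 and 0.450 with 4 UMIs in each library, above both. TENM3 lay above both as well: it was at 1.12 and 1.04 of its overall level, 193 CPM in library A and 155 in library B, and 46.7% and 39.1% of microglia had a TENM3 UMI. After thinning to 1500 UMIs per cell TENM3 was at 167 and 146 CPM in microglia. Endothelial cells, gated by CLDN5, held TENM3 at 94.7 and 68.6 CPM, which is 0.551 and 0.460 of the overall level. The 5 neural genes were at 0.253 to 0.487 in library A and 0.285 to 0.550 in library B, so TENM3 lay above the first range and within the second. There TENM4 was at 0.327 and 0.431, within both, while TENM1 (0.485 and 0.735) and TENM2 (0.478 and 0.567) lay above the range in library B.

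Differences between pairs of classes were fitted with edgeR on the UMIs summed per class and library, with library as a block. Here and below, differences are fitted log2 fold changes. Each SE is the size of that change over the square root of the fit's F statistic. The teneurins were picked with their class levels in view, so their SEs are a description and lend no support. From non-dividing HOPX and CLU glia to non-dividing EOMES progenitors, TENM4 differed by 2.44 (SE 0.10; 2.38 and 2.51 in libraries A and B) and TENM2 by -1.37 (SE 0.18; -1.34 and -1.52). TENM3 differed by 0.21 (SE 0.09; 0.26 and 0.042) and TENM1 by 0.17 (SE 0.27). The 2 libraries gave the same sign for all 4 genes in this pair.

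From non-dividing EOMES progenitors to newborn excitatory neurons, TENM2 differed by 1.33 (SE 0.17), TENM1 by 1.23 (SE 0.19) and TENM3 by -0.87 (SE 0.09), each with the same sign in both libraries. TENM4 differed by 0.13 (SE 0.07), with -0.049 in library A and 0.25 in library B. The CPM of these 2 classes did not overlap for TENM1, TENM2 and TENM3, and overlapped for TENM4. From newborn to deep-list neurons, TENM2 differed by 0.56 (SE 0.18; 0.65 and 0.44), and the 2 libraries gave opposite signs for TENM1, TENM3 and TENM4.

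From LHX6 or NXPH1 to ADARB2 interneurons, all 4 teneurins were lower in both libraries: TENM2 by -1.02 (SE 0.09), TENM4 by -1.60 (SE 0.31), TENM1 by -1.81 (SE 0.41) and TENM3 by -0.88 (SE 0.33). Libraries A and B gave -0.66 and -2.24 for TENM3, and the thinned TENM3 and TENM4 shares of both classes lay below those of microglia. In CPM without thinning, LHX6 or NXPH1 interneurons held more TENM4 than microglia in library A (85.8 against 64.4) and less in library B (56.7 against 75.8). How much of these levels is background was not tested. From HOPX and CLU glia to EGFR and OLIG1 gliogenic progenitors, TENM4 differed by -1.95 (SE 0.26; -2.30 and -1.17), TENM3 by -0.62 (SE 0.13) and TENM2 by 0.07 (SE 0.19). At 1500 UMIs per cell, TENM4 was found in 13.9% and 9.50% of these glia and in 3.35% and 3.41% of the gliogenic progenitors. All of these shares lay below those of microglia of the same library (14.1% and 11.5%). The exact intervals of HOPX and CLU glia and of microglia overlapped in both libraries (10.6% to 17.9% and 7.74% to 23.0% in library A). In CPM without thinning, these glia held more TENM4 than microglia in library A (90.0 against 64.4) and less in library B (64.5 against 75.8). The part of background in these levels was not tested. The first pair shares EOMES progenitors with the second and HOPX and CLU glia with the last, and the second shares newborn neurons with the third, so these values are not independent.

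**Figure D3:**
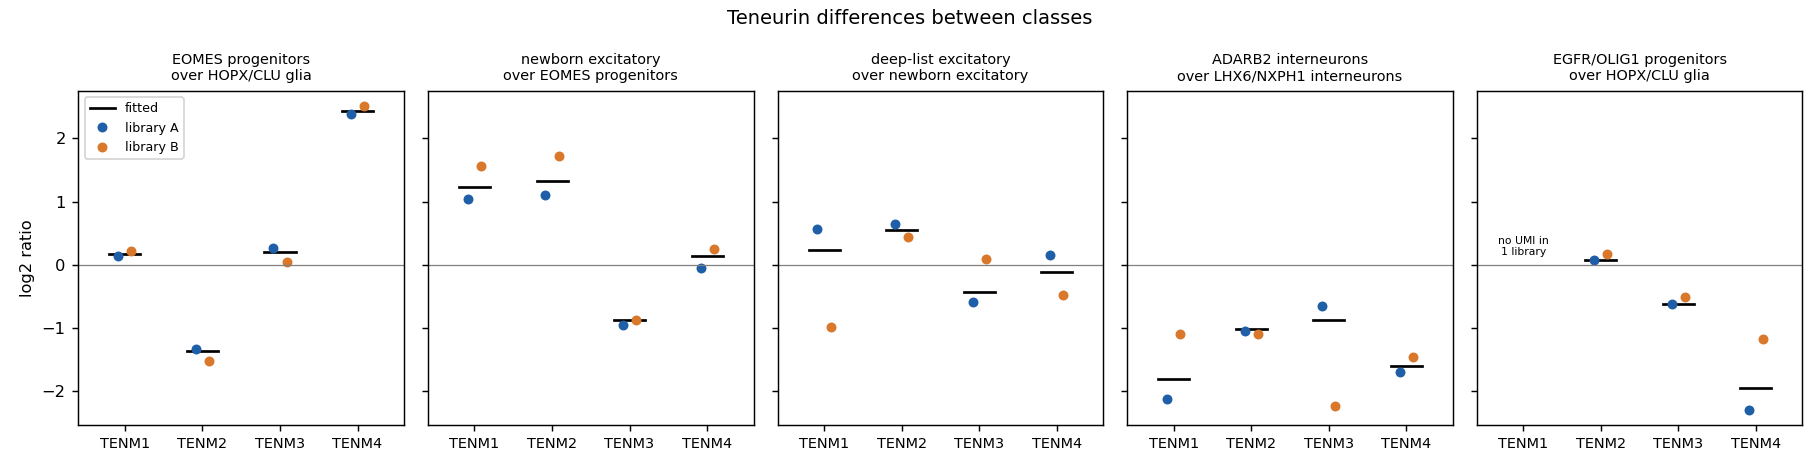
Log2 ratio (y axis) of each teneurin in the 5 pairs of classes, with the ratio of CPM in each library as points and the fitted value as a line; TENM1 is left out of the last pair because 1 library had no UMI. TENM4 stands at 2.44 in EOMES progenitors over HOPX and CLU glia and at -1.95 in EGFR and OLIG1 gliogenic progenitors over the same glia.

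The partners of the teneurins were not used to choose them and were tested. The partner list was itself drawn up with earlier results of these data known, which limits what its p values can support. The list held the latrophilin genes ADGRL1, ADGRL2 and ADGRL3, FLRT1, FLRT2 and FLRT3, UNC5A, UNC5B, UNC5C and UNC5D, the dystroglycan gene DAG1, and MBD1, whose protein binds the inner part of teneurin-1. Adjusted p values come from the quasi-likelihood test of edgeR, with the Benjamini-Hochberg method over all genes tested, and genes of the gates are not counted. DESeq2 was run as an alternative.

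In non-dividing EOMES progenitors against HOPX and CLU glia, 3 of 10 tested partners were higher and 2 lower, beside 26.3% and 27.8% of all 10828 genes. The median of the partners was 0.043, and that of all genes 0.02. UNC5D, a repulsive guidance receptor of migrating cortical neurons, rose by 3.28 (SE 0.13, adjusted p = 7.51e-33), from 39.0 and 43.0 CPM in glia of libraries A and B to 440.3 and 298 in EOMES progenitors. The level in these glia lay below that of microglia in both libraries, as given below, and how much of it is background was not tested. ADGRL2 fell by 1.66 (SE 0.11, adjusted p = 2.24e-21), from 291 and 273 to 99.3 and 69.6 CPM. DAG1 fell by 2.01 (SE 0.15, adjusted p = 3.37e-19). UNC5C (2.04) and FLRT2 (1.06) were also higher, and DESeq2 ended both calls (adjusted p = 0.0578 and 0.253).

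In newborn excitatory neurons against non-dividing EOMES progenitors, 5 of 10 partners were higher and 0 lower, beside 14.4% and 14% of 10956 genes (median 0.87 for the partners and -0.00031 for all genes). At an unadjusted p under 0.05, edgeR also gave 5 higher and 0 lower, and DESeq2 called 4 and 0. UNC5D rose further by 1.99 (SE 0.06, adjusted p = 5.69e-240), to 1522 and 1311 CPM. ADGRL3, a latrophilin gene, rose by 1.61 (SE 0.08, adjusted p = 2.39e-85), from 210.0 and 156 to 551 and 553 CPM. FLRT2 rose by 1.89 (SE 0.14, adjusted p = 1.70e-37), UNC5C by 1.98 and FLRT1 by 1.5. DESeq2 ended the call of FLRT1 (adjusted p = 0.176). In the same pair TENM1 and TENM2 were also higher and TENM3 lower, with the limits given above.

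In deep-list against newborn neurons, 2 of 10 partners were higher and 0 lower, beside 0.712% and 0.666% of 8854 genes (medians 0.24 and -0.0099). At an unadjusted p under 0.05 edgeR gave the same counts, and DESeq2 called 1 and 0. ADGRL3 rose by 0.66 (SE 0.10, adjusted p = 0.00231), from 551 and 553 to 1004 and 767 CPM. ADGRL2 rose by 0.66 (SE 0.15, adjusted p = 0.0429). That call ended with DESeq2 (adjusted p = 0.99966), with cells of a high doublet score removed (0.232) and with thinned cells (0.275).

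In ADARB2 against LHX6 or NXPH1 interneurons, 1 of 9 tested partners was higher and 2 lower, beside 9.06% and 7.09% of 7646 genes (medians 0.18 and 0.0088). UNC5D fell by 2.24 (SE 0.20, adjusted p = 1.92e-20), from 223 and 189 to 45.1 and 38.2 CPM, and UNC5C by 2.01 (SE 0.13, adjusted p = 2.48e-31), from 438 and 391 to 97.7 and 118 CPM. Microglia held more UNC5D than ADARB2 interneurons in both libraries, and more than LHX6 or NXPH1 interneurons in library B, as given below. How much of the UNC5D in interneurons is background was not tested. FLRT1 rose by 1.40 (SE 0.19, adjusted p = 1.44e-10), from 69.6 and 75.6 to 186 and 153 CPM, a call that DESeq2 ended (adjusted p = 0.134). ADGRL3 differed by 0.25 (SE 0.10, adjusted p = 0.0504), from 628 and 479 to 702 and 596 CPM.

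In EGFR and OLIG1 gliogenic progenitors against HOPX and CLU glia, 3 of 9 tested partners were higher and 2 lower, beside 17.1% and 18.5% of 9823 genes (medians -0.16 and 0.0043). ADGRL2 fell by 2.09 (SE 0.15, adjusted p = 5.77e-43), from 291 and 273 to 68.1 and 69.1 CPM, while ADGRL3 rose by 1.05 (SE 0.11, adjusted p = 5.98e-21), from 179.9 and 179 to 409.7 and 331 CPM. The 2 latrophilin genes thus went opposite ways. DAG1 fell by 1.29, while FLRT3 rose by 1.55 and UNC5D by 0.63 (adjusted p = 0.0179). DESeq2 ended the calls of FLRT3 (adjusted p = 0.101) and UNC5D (0.590). The call of UNC5D also ended with high doublet scores removed (0.126), stricter gates (0.869) and thinned cells (0.460). UNC5D was at 64.1 and 64.3 CPM against 39.0 and 43.0, beside 142 and 220.4 in microglia.

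**Figure D4:**
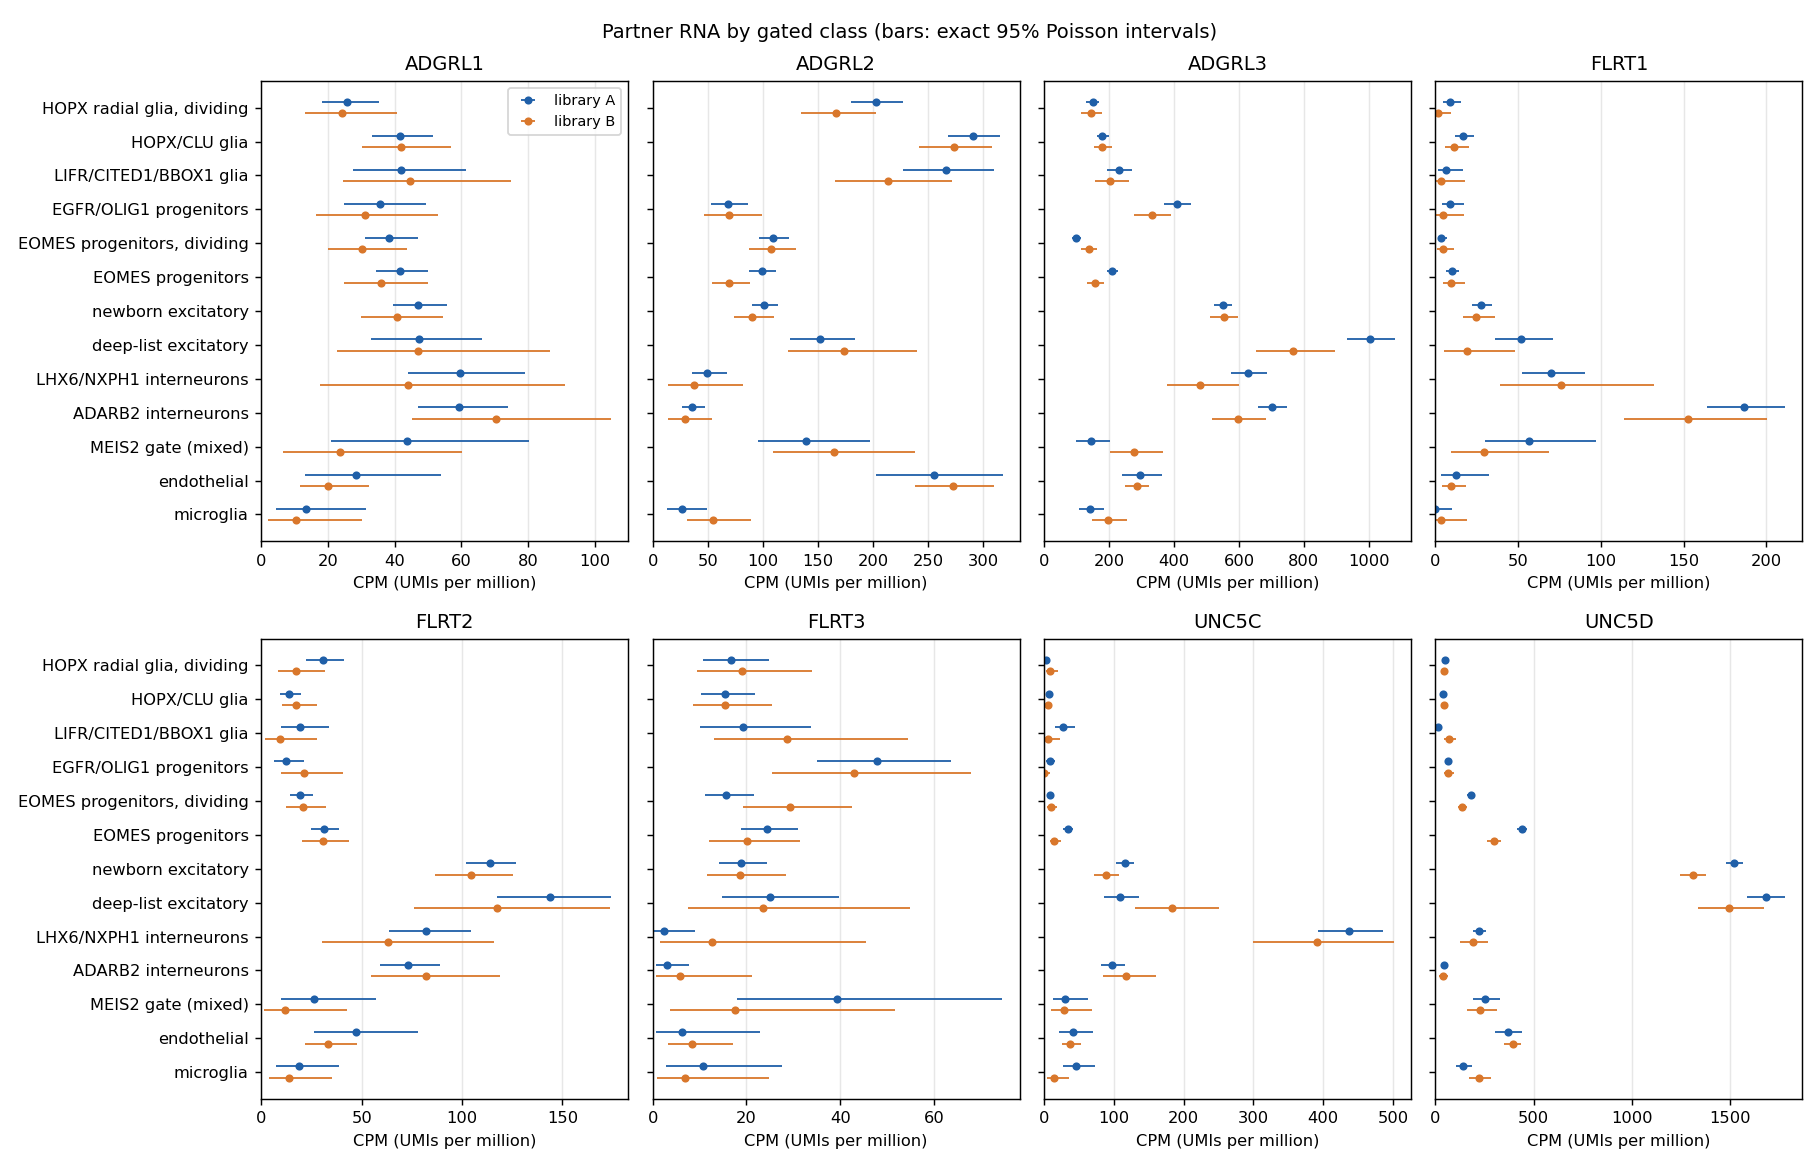
CPM (x axes, a scale for each gene) of 8 partner genes in the same 13 classes, with 1 point per library and exact 95% Poisson intervals. ADGRL2 is at 273 to 291 CPM in HOPX and CLU glia, ADGRL3 at 479 CPM or more in all 4 neuron classes outside the mixed MEIS2 gate, and UNC5C highest in LHX6 or NXPH1 interneurons at 391 to 438.

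Within classes, cells were split by a UMI of each marker kept out of the gate, a step chosen after the data were seen. Of 120 splits (30 for each teneurin) with at least 20 cells on each side, 3 had Poisson intervals of both sides that were apart in library A and also in library B. These 3 were in newborn neurons. There, cells with a UMI of BHLHE22, a transcription factor gene of excitatory neurons, held more TENM1 (94.0 against 31.4 CPM in library A, 108 against 38.8 in library B). They also held more TENM2 (92.8 against 52.7, and 137 against 61.2) and less TENM3 (72.3 against 163, and 61.2 against 126). A UMI of a marker is found more readily in deep cells, and the part of depth in these splits was not tested.

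**Figure D5:**
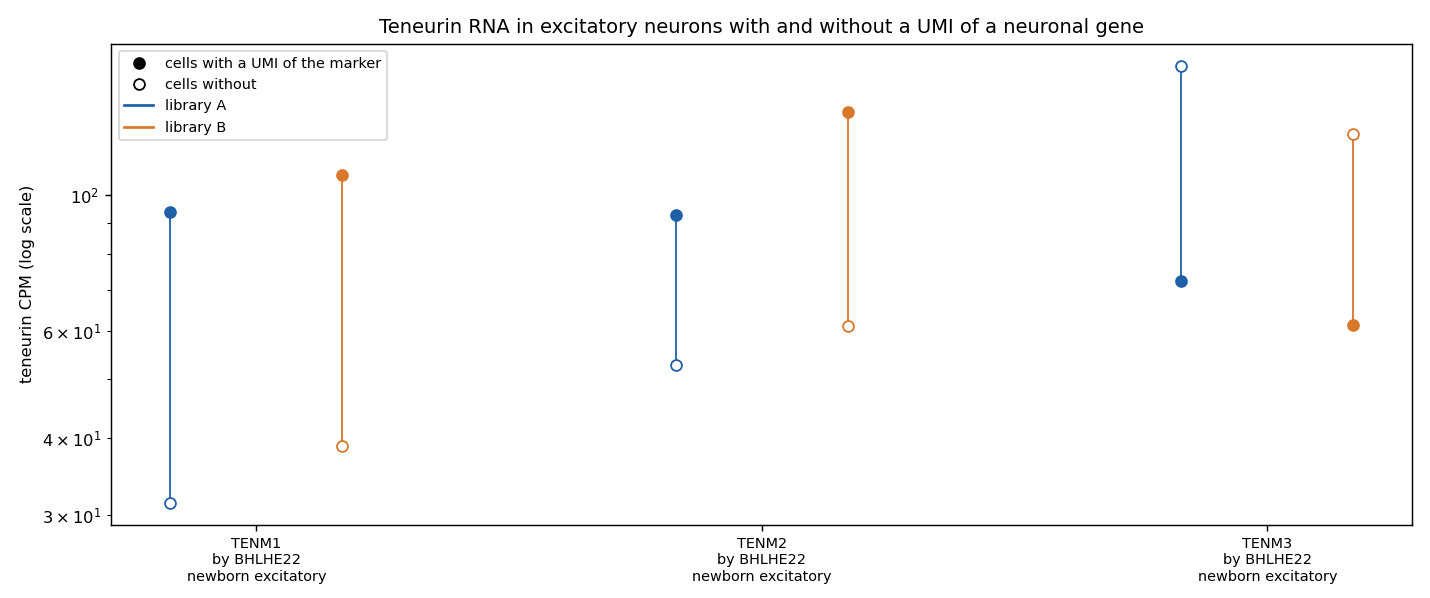
CPM of a teneurin (y axis, log scale) in newborn excitatory neurons with (filled) and without (open) a UMI of BHLHE22, for the 3 teneurins whose split was apart in both libraries. TENM1 and TENM2 are higher, and TENM3 is lower, in the cells with the marker.

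The genes with the most similar profile were sought for each teneurin over the 13 classes, as the lower of the 2 libraries' Pearson r of log2(CPM + 10) among 6539 genes. For TENM4 they were the axon guidance receptor gene ROBO2 (r = 0.947 and 0.965 in libraries A and B), the potassium channel gene KCNQ3 (0.941 and 0.959), DOK6, DDAH2 and FBXW7. For TENM2 they were BEND4 (0.930 and 0.938), FRMPD4, BACH2, TOX2 and the glutamate receptor gene GRIA1 (0.943 and 0.921). For TENM3 they were the adhesion receptor gene ADGRV1 (0.894 and 0.909), FAM53B, VEPH1, MDK and PTX3. For TENM1 they were SORBS2 (0.790 and 0.797), LOC123393542, SH3GL2, the ankyrin gene ANK3 and LY6H. Between teneurins, TENM2 and TENM3 had r = -0.867 and -0.749, and TENM1 and TENM4 0.704 and 0.446. These values describe 13 classes of the same 2 libraries, which share depth and free RNA.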

How the data were processed

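The authors deposited raw UMI counts of both replicates in 1 matrix, made with Cell Ranger per the submitters' processing notes. Which version and genome build was not given in the sources used here. No cell had fewer than 1501 UMIs, so cells had been filtered before deposit. Cells under 500 genes or over 10% mitochondrial UMIs were dropped (14 of 14787). Gates were applied to raw UMIs, and 0 cells passed more than 1 gate. The gates bar markers of many but not all other classes. Neither EOMES gate bars NEUROD2, NEUROD6 or NEUROD1, and the MEIS2 gate does not bar EOMES. Scrublet in scanpy 1.11.5 gave doublet scores, used only in an alternative. Thinning drew 1500 UMIs per cell without replacement. Levels carry exact Poisson and Clopper-Pearson 95% intervals, for counting error only. Class sums were tested in R 4.3.3 with edgeR 4.0.16 (TMM, filterByExpr, library as a block, adjusted p under 0.05), checked on simulated data. The p-values rest on counting error and on how a class difference varies between 2 libraries, with dispersion shared over genes. That variation may be technical. DESeq2 1.42.0 was an alternative. The members and lists were chosen with earlier results of these data known. Named genes are the 4 teneurins, partners called in a comparison, and the 5 genes of most similar profile among those at 50 CPM or more in a class in both libraries; ADGRL3 among interneurons, the marker splits and the 5 neural genes in microglia were chosen after their values were seen. One further gate and 1 further partner gene are not reported here.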

Additional observations from a re-analysis of the deposited data

How the results depend on the processing

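The count of called genes depended on the test. With DESeq2 it was 2469 in place of 5863 for EOMES progenitors against HOPX and CLU glia, 674 in place of 3108 for newborn neurons against EOMES progenitors, 25 in place of 122 for deep-list against newborn neurons, 290 in place of 1235 for ADARB2 against LHX6 or NXPH1 interneurons, and 1138 in place of 3503 for gliogenic progenitors against HOPX and CLU glia. With every cell thinned to 1500 UMIs the counts were 3184, 1609, 761 and 1635 for the first, the second, the fourth and the fifth pair. Stricter gates gave 1713 in the second pair, and could not be run in the third pair, where 11 cells were left in library B. For deep-list against newborn neurons, no filter gave 274 and removal of doublet scores above 0.2 gave 57, and DESeq2 called 19 higher and 6 lower (76% higher) in place of 63 and 59 (51.6%). Called partners there came to 1 in place of 2 with DESeq2, doublets removed or thinned cells, to 3 in place of 5 with DESeq2 in the fifth pair, and to 3 in place of 5 with DESeq2 or thinned cells in the first. Without the library block, counts stayed within 1.5 times (2299 in the second pair).

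Of the 52 teneurin levels, 0 moved by over 1.5 times with doublets removed, 5 with thinned cells and 3 with the mean of each cell's own CPM; of the 44 that stricter gates gave, 0 did. In microglia thinning took TENM2 from 35.0 to 70.9 CPM and TENM1 from 12.3 to 26.2. The 16 levels at or above the gene's overall level were 12 with stricter gates, which left out the deep-list and mixed MEIS2 classes that hold 4 of the 16, and 15 with thinned cells, and 16 and 17 in library A and B alone. Signs changed for TENM1 in the first pair with doublets removed (-0.0049), for TENM2 in the fifth pair with thinned cells (-0.029), for TENM4 in the second pair (-0.049 to 0.25 over the libraries), and in the third pair for TENM1 (-0.98 to 0.56 over the libraries; -0.075 with DESeq2), TENM3 (-0.60 to 0.097) and TENM4 (-0.47 to 0.16). The cause was not tested.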

Other observations

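The smallest classes were kept out of the order. CRYAB-positive glia, a gate made for truncated radial glia, held TENM3 at 219 CPM in 13 cells of library A and 213 in 16 cells of library B, near the level of dividing HOPX radial glia (248 and 237). TENM2 there was at 175 CPM in library A (12 UMIs) and 28.4 in library B (2 UMIs). Oligodendrocyte precursors held TENM3 at 157 and 110.1 CPM, and ADGRL3, the latrophilin gene, at 1238 and 1198 CPM. Ependymal cells held TENM4 at 114 CPM in 10 cells and 148 CPM in 23 cells. In mural and fibroblast cells each teneurin had 7 UMIs or fewer per library, and in erythroid cells 1 or 0.

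Cells with a UMI of 2 teneurins were counted at 1500 UMIs per cell. In 2 combinations of a gene pair and a class, both libraries had at least 15 such cells, and their share was 1.08 to 1.196 of the product of the single shares. In non-dividing EOMES progenitors 15.9% and 12.9% of cells had both TENM3 and TENM4, beside products of 14.002% and 11.9%. In newborn neurons the share was 10.8% and 7.49%, beside 9.01% and 6.49%.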
